A study of Mus musculus with 7 samples.

Results

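Sorted satellite cells, the stem cells of skeletal muscle (MuSCs), taken 60 h after notexin injury were compared with homeostatic MuSCs, whose labels give no injury. Each group has 2 droplet 3' single-cell RNA libraries from mice of the strain that the labels spell C56BL/6J. A barcode was taken as a MuSC when it showed 200 or more genes and had no more than 10% of its UMIs from mitochondrial genes (unique molecular identifiers, 1 for each captured RNA molecule). It also needed at least 1 UMI summed over the 6 myogenic genes Cdh15, Des, Myf5, Myod1, Myog and Chrdl2, and none of Ptprc, Pecam1 and Tnmd, which mark blood, endothelial and tendon cells. This rule kept 1397 and 1241 cells of homeostatic MuSC 1 and 2 and 1168 and 1803 cells of injured MuSC 1 and 2, together 5609 of the 15474 barcodes in the 7 libraries of the series. Notexin, a snake venom phospholipase that destroys muscle fibres, was given at 2 µM, and the injured cells came from muscles labelled TE-EDL. The labels of the homeostatic cells name no muscle. Neither group is given an age, a sex or a number of animals, and nothing states that the 2 libraries of a group came from separate mice, so p-values measure the spread between these libraries, which may be technical. The same cell rule gave 184 and 244 cells in 2 libraries of unsorted hindlimb muscle (3 months old, no injury named). It gave 4338 cells in 1 library of primary myoblasts grown with bFGF (age given as 3 months). These libraries are used here for levels side by side.

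Satellite cells lie between a muscle fibre and its basal lamina and rest outside the cell cycle. When fibres are damaged they enter the cycle, multiply as myoblasts, and later either leave the cycle under the transcription factor Myog to fuse into fibres or return to rest. Cell cycle entry runs from D-type cyclins through release of the E2F factors from the pocket proteins to replication and mitosis, and CDK inhibitors hold it back.

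The chosen cells held 3367709 and 3031741 UMIs in homeostatic MuSC 1 and 2, a median of 2392 and 2476 a cell, and 8697385 and 6245209 UMIs in injured MuSC 1 and 2, a median of 7369 and 3286. The injured libraries shared 253 barcodes, 123 of them chosen in both, whereas every other pair of libraries shared at most 16. The 2 injured libraries may thus not be independent of each other, which was not tested. Xist, the RNA of the inactive X chromosome, stood at 699 and 952 counts per 1000000 UMIs (CPM) in injured MuSC 1 and 2 and at 0.297 and 0.660 in homeostatic MuSC 1 and 2, and Ddx3y of the Y chromosome at 0.115 and 0.160 against 341 and 282. Injury, the sex of the mice and the muscle sampled therefore cannot be told apart between the 2 groups. Total muscle, with no injury named, had Xist at 569 and 554 CPM and no Ddx3y UMI. mt-Nd4l, which the mitochondrial genome encodes, had 678 and 599 CPM in the injured libraries and no UMI in the other 5 libraries of the series, and mt-Atp6 had 8841 and 8760 CPM against at most 250. H2afz, which encodes the histone variant H2A.Z and has copies elsewhere in the genome, had 3313 and 3267 CPM in the injured cells against 246 in cultured primary myoblasts. A gene counted here as having a copy where the last 300 bases of its transcripts matched those of another gene. The 2061 tested genes with a copy had a median log2 fold change of 0.51, against -0.09 for the 8469 without one. The lists below are therefore also counted over genes without a copy. That count need not remove such differences. mt-Atp8, which has no copy, had 207 and 171 CPM in injured MuSC 1 and 2 against 0.594 and 0.990 in homeostatic MuSC 1 and 2. Any difference in how the injured libraries were made or counted also cannot be told apart from injury. Of 6121 genes checked, 131 differed by over 0.58 on the log2 scale between cells with barcodes rich and poor in G and C in both injured libraries. Of these, 129 were lower with barcodes rich in G and C. The homeostatic libraries did not enter this choice. In homeostatic MuSC 1 and 2, Spry2 differed by -2.20 and -2.81 and Cdkn1c by -0.40 and -0.11. Those among the 131 that are described below are called barcode-dependent. The part of these differences between libraries in the results was not tested.

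The sorted cells were checked against marker genes. The rule genes are a description, since they chose the cells: Myod1, a factor of committed and activated MuSCs, had 1732 and 1803 CPM in the homeostatic cells and 235 and 266 in the injured cells, and Chrdl2 had 358 and 378 against 0.115 and 0. Myog had 2.67 and 0 CPM against 131 and 209, and Myf5 204 and 258 against 227 and 379. Des had 1011 and 1100 CPM against 268 and 273, and Cdh15 114 and 78.2 against 34.5 and 43.4. All 14 myogenic markers, the rule genes included, summed to 9124 and 10371 CPM against 1880 and 2326. Only 1 UMI over the 6 rule genes chose 165 and 146 cells of homeostatic MuSC 1 and 2. The same held for 94 and 412 cells of injured MuSC 1 and 2. Pax7, the satellite cell factor that the rule did not read, had 43.6 and 29.0 CPM in the homeostatic and 6.90 and 10.1 in the injured cells (log2 fold change -1.84 ± 0.26, SE). The cell rule itself sets Ptprc, Pecam1 and Tnmd at 0 in both groups, and they are listed among the immune, endothelial and tenocyte markers. Of 17 immune markers, Ptprc included, 10 had no UMI in the homeostatic and 4 none in the injured cells, with 7.42 and 5.28 CPM in sum against 24.7 and 22.7. The 6 erythroid markers summed to 2137 and 960 CPM in the homeostatic cells and 3.45 and 2.56 in the injured cells. Fibro-adipogenic markers (10 genes) summed to 1002 and 1078 against 45.8 and 44.5 CPM, beside 27573 and 21149 in total muscle, and mural markers (8) to 299 and 237 against 29.2 and 35.4. Glial markers (7) had 91.8 CPM in homeostatic MuSC 1, 5.28 in homeostatic MuSC 2 and 1.38 and 2.40 in the injured cells. Tenocyte markers (7) had 421 and 311 against 76.1 and 109, and endothelial markers (11) 33.0 and 27.4 against 7.36 and 9.45 CPM. The 10 mature fibre markers were low in both groups, at 24.9 and 70.3 against 60.8 and 115 CPM, and 7 epithelial markers had 0.297 and 0.990 against 20.8 and 17.5. Markers of other cell types thus differed in level between the groups, and their part in the genes that fell was not tested. In sums over libraries, fewer cells with an RNA and less RNA per cell cannot be told apart.

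UMIs were summed over the chosen cells of each library, and edgeR's quasi-likelihood test compared 2 libraries with 2. Of 10547 genes tested, 4016 (38.1%) were higher and 3877 (36.8%) lower in injured MuSCs at a Benjamini-Hochberg adjusted p under 0.05. Over the 8469 genes without a copy, 2994 rose and 3310 fell. Without scaling beyond the total UMI count the split turned to 3384 higher and 4556 lower, with the median of all genes at -0.27 in place of 0.02 on the log2 scale. Because about 3 in 4 genes passed, a list is read against these shares. CPM values from here on are scaled within the 4 libraries.

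The largest rises included several genes of mitosis. Among autosomal genes without a copy that reached 50 CPM in a group, Cdca3, which promotes entry into mitosis, had no UMI in either homeostatic library and 126.0 and 115.8 CPM in injured MuSC 1 and 2, at least 287-fold higher (bound at 3 UMIs over the group, as for the bounds that follow). Cdk1, the mitotic kinase, had 0 and 0.298 CPM against 118.6 and 101.5, a ratio of 788 (95% counting interval 141 to 31141). Ccna2 (cyclin A2), Gmnn (geminin, which blocks a second licensing of origins) and Ect2, which places the cleavage furrow, likewise had 1 UMI in homeostatic MuSC 2 and none in homeostatic MuSC 1. Their ratios were 652, 544 and 372. Birc5 (survivin) rose from 0.269 and 1.79 to 288 and 249 CPM (log2 fold change 8.05 ± 0.32), and to log2 7.20 without homeostatic MuSC 1 and 9.84 without homeostatic MuSC 2. Cenpa, the histone of the centromere, rose from 1.89 and 0.596 to 278 and 273 CPM (7.73 ± 0.27, and 8.78 without homeostatic MuSC 1). Diaph3, an actin-nucleating formin, rose from 0.808 and 0.596 to 167 and 212 CPM, and the spindle protein gene Nusap1 from 0.269 and 0.298 to 55.6 and 56.4 CPM. In each of these genes both injured libraries lay above both homeostatic ones, which the choice of genes required.

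The largest rises also included Cst6, Murc and Hmga2. Cst6, a cysteine protease inhibitor, had no UMI in the homeostatic cells and 62.5 and 58.2 CPM in the injured cells, at least 143-fold higher. Murc, a muscle caveola protein, had 0 and 0.298 against 57.8 and 68.0 CPM, a ratio of 439 (78.6 to 17369). Hmga2, a chromatin protein of growing and embryonic cells, had 0.269 and 0.596 against 94.4 and 89.0 CPM, a ratio of 217 (74.2 to 1055). Murc and Cst6 were also found in total muscle, at 20.7 and 33.6 CPM for Murc and 9.64 and 12.2 CPM for Cst6 (CPM without further scaling), while Hmga2 had no UMI there.

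The largest falls included genes of secreted, surface and intracellular proteins. Nppc, the precursor of C-type natriuretic peptide, had 500.0 and 338 CPM in homeostatic MuSC 1 and 2 and 0.638 and 0.529 in injured MuSC 1 and 2, and Edn3 (endothelin 3) 71.4 and 53.9 against 0.128 and 0. The matrix proteins Dpt (dermatopontin) and Vtn (vitronectin) had 172 and 168, and 96.1 and 84.0 CPM, in the homeostatic cells and at most 2 UMIs over both injured libraries. S1pr3, a receptor for sphingosine-1-phosphate, had 88.9 and 56.9 CPM in the homeostatic cells and no UMI in the injured cells, at least 332-fold lower. Gbp2, an interferon-induced GTPase, Pdzd2, a scaffold protein, and Ttyh1, a membrane protein, were also without a UMI in the injured cells, with bounds of 830, 285 and 231-fold. Medag fell from 308 and 248 to 0.383 and 0.353 CPM, and the sialidase Neu2 from 108.5 and 68.2 to 0 and 0.176. The heat shock gene Hspa1a fell as well, but its homeostatic libraries differed, at 2675 and 699 CPM against 1.79 and 3.17 (log2 -9.45 ± 0.68; -8.20 without homeostatic MuSC 1 and -10.13 without homeostatic MuSC 2). Total muscle had Dpt at 405 and 412 and Vtn at 117 and 139 CPM without further scaling in its chosen cells, whose fibro-adipogenic markers stood at the 27573 and 21149 CPM given above.

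**Figure D1:**
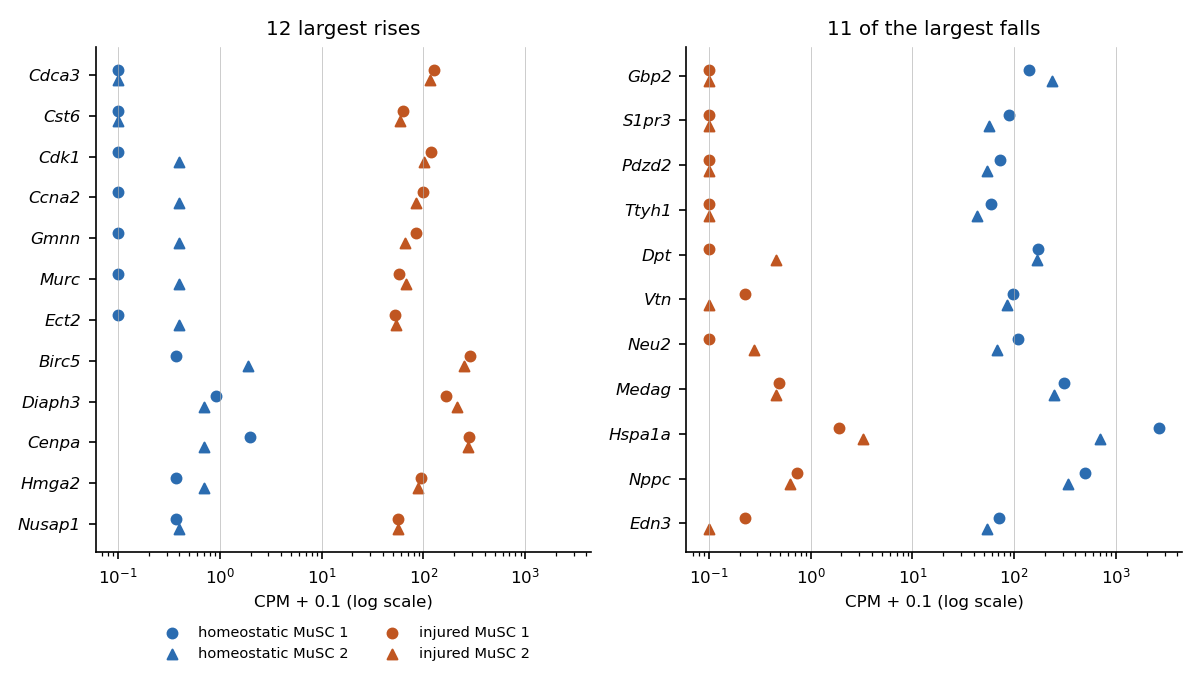
Scaled CPM plus 0.1 (log axis) of the 12 largest rises (left) and 11 of the largest falls (right) in each library, circles for library 1 and triangles for library 2 of the homeostatic (blue) and injured (orange) MuSCs; a point at 0.1 has no UMI. The 2 groups do not overlap in any of these genes, which the rule required, and the homeostatic libraries of Hspa1a stand at 2675 and 699 CPM.

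Start regions of some rising genes are shown because the genes that rose together include classes that carry known cell cycle elements. Windows run from 250 bases before to 50 after a gene's start (RefSeq, GRCm38.p6, 5′ to 3′ on the gene's strand), and capitals mark 3 motifs searched on both strands. They are the CHR (TTTGAA or TTCGAA), an element of G2 and M phase genes, the CCAAT box (CCAAT), and the E2F site (TTTGGCGC, TTTCCCGC, TTTCGCGC, TTTGCCGC or TTTGGCGG). None of the marked motifs overlapped in the printed windows. Cdca3 lies at chr6:124829926-124830225 on the plus strand, Cdk1 at chr10:69352863-69353162 on the minus strand and Cdc6, which loads the helicase at origins, at chr11:98907901-98908200 on the plus strand. Cdc6 was taken as the largest rise among replication genes without a copy that held an E2F match, a choice made after its values were seen: it had 1 UMI in each homeostatic library, 0.269 and 0.298 CPM, against 20.8 and 15.2 CPM in the injured cells, a ratio of 65.2 (17.9 to 541).
Cdca3: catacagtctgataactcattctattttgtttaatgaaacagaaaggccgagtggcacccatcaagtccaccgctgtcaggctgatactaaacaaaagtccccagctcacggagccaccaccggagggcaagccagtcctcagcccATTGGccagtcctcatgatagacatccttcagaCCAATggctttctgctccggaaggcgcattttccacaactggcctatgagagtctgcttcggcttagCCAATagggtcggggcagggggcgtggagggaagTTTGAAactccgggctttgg
Cdk1: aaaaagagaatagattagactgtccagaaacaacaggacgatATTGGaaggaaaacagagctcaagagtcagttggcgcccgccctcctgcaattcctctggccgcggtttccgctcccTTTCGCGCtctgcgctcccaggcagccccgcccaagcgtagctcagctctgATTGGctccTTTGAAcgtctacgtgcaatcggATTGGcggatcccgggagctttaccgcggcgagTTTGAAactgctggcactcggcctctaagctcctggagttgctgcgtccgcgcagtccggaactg
Cdc6: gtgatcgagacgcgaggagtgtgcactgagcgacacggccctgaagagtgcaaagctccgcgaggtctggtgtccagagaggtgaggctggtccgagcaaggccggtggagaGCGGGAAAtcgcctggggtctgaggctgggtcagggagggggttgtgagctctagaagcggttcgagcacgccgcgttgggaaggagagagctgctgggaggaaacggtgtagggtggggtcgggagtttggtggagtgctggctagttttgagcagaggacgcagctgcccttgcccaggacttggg

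A window was matched by symbol for 8032 of the 10547 tested genes, and for 27025 genes in all. The E2F letters stood in 16 of 41 matched replication genes (39.0%) and 6 of 14 matched cohesin and condensin genes (42.9%). They stood in 5.32% of tested genes and 2.82% of all windows. The CHR letters stood in 7 of 14 matched cohesin and condensin genes and 9 of 41 replication genes, against 13.6% of tested genes and 19.4% of all windows. CCAAT stood in 20 of 41 replication genes and 7 of 14 cohesin and condensin genes, against 38.9% of the tested genes' windows. A match is a string of letters and not a bound site.

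Genes of DNA replication rose as a group. Of 51 tested genes of origin licensing and the replication fork, 49 were higher and no gene was lower (median log2 fold change 2.79). Of the 34 without a copy, 33 were higher. Tipin, which steadies stalled forks, rose from 25.6 and 25 CPM in homeostatic MuSC 1 and 2 to 218 and 216 in injured MuSC 1 and 2 (log2 3.10 ± 0.15). Pcna, the sliding clamp, has a copy and rose from 106.4 and 108.4 to 175 and 155 CPM (0.62 ± 0.14). Nucleotide synthesis split, with 20 of 32 higher and 7 lower (median 0.95; 13 higher and 6 lower of 21 without a copy). Dtymk, which makes thymidine diphosphate and has copies, rose from 38.5 and 30.7 to 371 and 372 CPM. Aprt, which salvages adenine, rose from 138 and 170.3 to 278 and 239 CPM (0.75 ± 0.15). Uck2, which salvages uridine and cytidine, went the other way, from 220.2 and 256 to 47.2 and 47.4 CPM (-2.33 ± 0.15).

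Among the 11 E2F and pocket protein genes, none of which has a copy, 8 rose and 1 fell. The activators E2f1 and E2f2 rose from 2.15 and 2.38 to 114 and 127 CPM (5.72 ± 0.24) and from 0.269 and 0.893 to 22.5 and 26.6 CPM (5.37 ± 0.41; 4.72 without homeostatic MuSC 1 and 6.38 without homeostatic MuSC 2). E2f7 and E2f8, which repress E2F targets late in S phase, had no UMI in the homeostatic cells and 14.9 and 13, and 33.8 and 34.4 CPM in the injured cells, at least 33.3 and 80.3-fold higher. The pocket proteins Rb1 and Rbl1, which hold E2Fs back, also rose, Rb1 from 5.39 and 5.96 to 18.1 and 23.1 CPM (1.85 ± 0.26) and Rbl1 from 1.35 and 0.298 to 11.7 and 14.1 CPM (3.88 ± 0.45; 5.31 without homeostatic MuSC 1 and 3.22 without homeostatic MuSC 2). E2f4 (1.45 ± 0.20) and E2f3 (0.89 ± 0.21) rose less. Rbl2, the pocket protein linked to rest, did not pass the test, at 1.62 and 2.08 against 2.2 and 2.29 CPM (0.27 ± 0.45), nor did E2f6 (0.24 ± 0.26). E2f5 fell from 26.7 and 28.3 to 4.98 and 6.70 CPM (-2.25 ± 0.23).

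The D-type cyclins, which start the cycle in answer to growth factors, differed among themselves. Ccnd1 rose from 46.9 and 34.2 to 179 and 178 CPM (2.14 ± 0.17) and Ccnd3, which has a copy, from 29.9 and 17.0 to 73.5 and 80.2 CPM (1.70 ± 0.22). Ccnd2 was low in all 4 libraries, at 9.69 and 5.36 against 3.70 and 5.46 CPM, and did not pass the test (-0.75 ± 0.36), although it did without homeostatic MuSC 2 (-1.12). Ccnd1 was thus the most counted of the 3 cyclins in all 4 libraries, while unscaled levels in primary myoblasts were 824 for Ccnd1 and 724 CPM for Ccnd2.

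More CDK inhibitors rose than fell, beside 38.1% higher and 36.8% lower of all tested genes. Of 7 tested, none with a copy, 5 were higher and 0 lower (median log2 fold change 1.65). Cdkn2a, which encodes p16 and p19Arf, went from 1.08 and 0.893 CPM in homeostatic MuSC 1 and 2 to 54.6 and 44.2 in injured MuSC 1 and 2 (5.61 ± 0.33). Cdkn1b (p27), which is barcode-dependent, went from 25.6 and 17.9 to 117 and 141 CPM (2.56 ± 0.20). Cdkn2b (2.12 ± 0.35), Cdkn2d (1.65 ± 0.28) and Cdkn2c (0.95 ± 0.21) rose with both injured libraries above both homeostatic ones. Cdkn1a (p21), the most counted of the 7, overlapped between the groups, at 753 and 492 against 532 and 562 CPM, and did not pass the test (-0.19 ± 0.18). It was lower and passed without homeostatic MuSC 2 (-0.47), and was at 0.14 without homeostatic MuSC 1. Cdkn1c (p57), also barcode-dependent, had 29.9 and 28.0 against 29.1 and 29.8 CPM (0.02 ± 0.18).

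Chromosome and nuclear proteins changed with them. Cohesin and condensin genes rose in 15 and fell in 3 of 21 cases (median 0.97; 12 and 3 of 18 without a copy, median 2.50). The condensin subunit Smc4 rose from 39.6 and 35.1 to 167 and 154 CPM (2.10 ± 0.15) and the cohesin subunit Rad21 from 58.2 and 62.5 to 118 and 118 CPM (0.97 ± 0.14). The 3 that fell are also cohesin genes: Nipbl, its loader (-2.24 ± 0.15, from 141 and 145 to 30.3 and 30.3 CPM), Smc1a (-1.56 ± 0.15) and Wapl, which releases it (-1.06 ± 0.15). Smc1a lies on the X chromosome, and the groups differ in sex-linked genes. Of 54 histone chaperone and chromatin genes 43 rose and 7 fell, and of the 36 without a copy 28 rose and 6 fell (median 1.07). Hdac4, a histone deacetylase of muscle, fell from 101 and 104 to 7.15 and 7.40 CPM (-3.82 ± 0.18).

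The nuclear lamina changed in opposite directions. Lmna, which encodes lamins A and C, fell from 2096 and 1941 CPM in homeostatic MuSC 1 and 2 to 758 and 619 in injured MuSC 1 and 2 (-1.55 ± 0.14). Lmnb1, a B-type lamin, rose from 7.81 and 10.7 to 65.2 and 59.6 CPM (2.76 ± 0.21), and Tmpo, a lamina-associated protein, from 26.1 and 18.2 to 212 and 201 CPM (3.21 ± 0.18). Lmnb2, which has copies, rose too (1.86 ± 0.21). Lbr, the lamin B receptor, was at 61.1 and 56.9 against 75.7 and 83.7 CPM (0.43 ± 0.15), a call lost without homeostatic MuSC 2 (0.37) or injured MuSC 2 (0.40). DNA methylation enzymes also parted: Dnmt1, which copies methylation at the fork, rose from 5.65 and 6.25 to 73.5 and 87.8 CPM (3.76 ± 0.22). The de novo enzyme Dnmt3a, which has copies, fell (-2.14 ± 0.25), as did the demethylating Tet2 (-1.59 ± 0.25). Dnmt3b was scarce, at 2.69 and 2.98 against 1.28 and 0.705 CPM (-1.44 ± 0.49), and lost its call when any 1 of the 4 libraries was left out (-1.93 to -1.10). Tet3 did not pass the test (-0.37 ± 0.19).

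**Figure D2:**
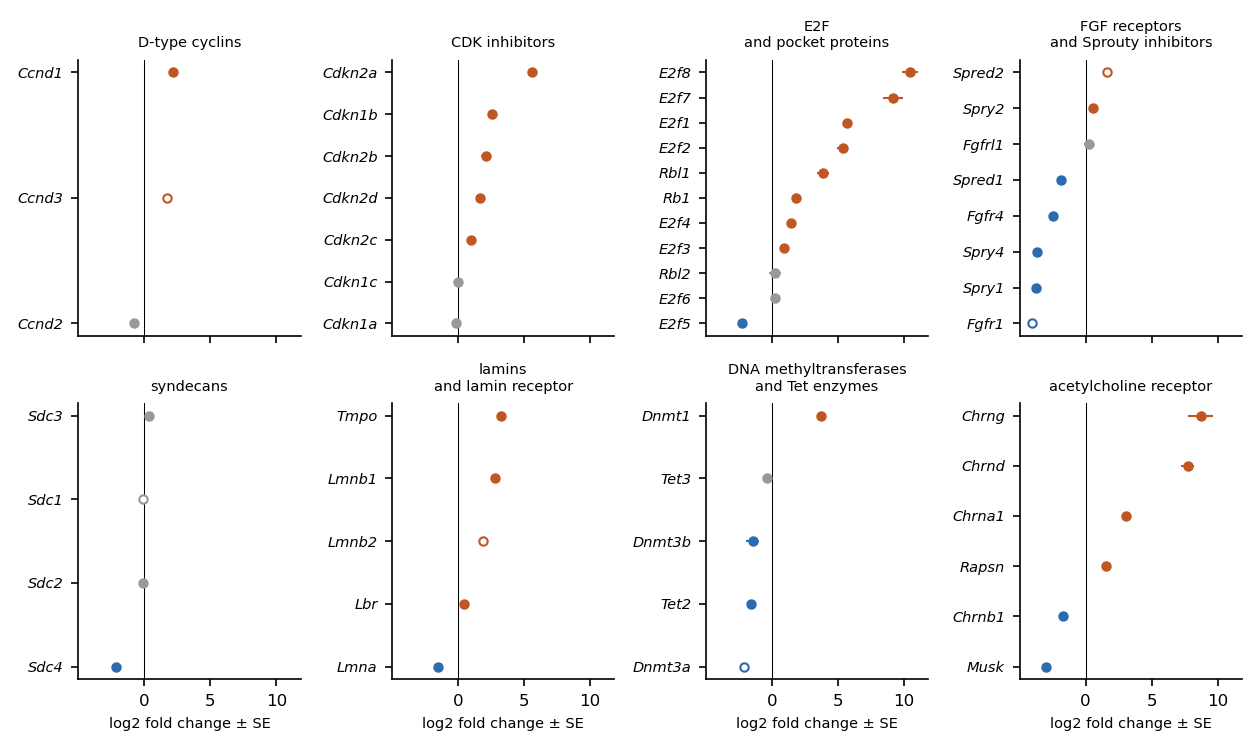
Log2 fold changes (injured over homeostatic, bars 1 SE of the edgeR fit over 2 against 2 libraries) of every tested member of 8 gene families; orange passed as higher, blue as lower, grey did not pass, and open points have a copy elsewhere in the genome. Cyclins, CDK inhibitors and E2Fs lie mostly to the right, FGF receptors and Sprouty genes mostly to the left, and the lamins, methyltransferases and acetylcholine receptor genes on both sides.

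The share of cells with a UMI was compared after each cell was thinned to 1000 UMIs, since the injured cells were deeper. Top2a, a topoisomerase of S to M phase, had a UMI in 14.1% (95% exact binomial interval 12.2 to 16.3) and 14.4% (12.7 to 16.1) of injured cells, and in 0.169% (0.0205 to 0.610) and 0 of 970 homeostatic cells, which allows up to 0.380%. Without thinning, the shares were 57.8% and 38.5% against 0.429% and 0.161%. Among the cells of injured MuSC 1 and 2 that the rule left out, thinned Top2a shares were 2.27% and 11.8%, the latter close to that of the chosen cells. Mki67 had a UMI in 3.68% and 3.89% of thinned injured cells and in none of the homeostatic cells. Tnnt2, an early troponin of differentiating muscle that the rule did not read, is barcode-dependent and had a UMI in 2.31% (1.53 to 3.35) and 2.12% (1.49 to 2.91) of thinned injured cells and in no homeostatic cell. Pax7 had a UMI in 0.685% and 1.03% of thinned injured and 5.00% and 2.27% of thinned homeostatic cells, and the intervals of homeostatic MuSC 2 (1.43 to 3.41) and injured MuSC 2 (0.611 to 1.62) overlap. Thinning left out 216 and 271 homeostatic cells and 55 of injured MuSC 2. The intervals cover counting error alone, and cells are not replicates.

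**Figure D3:**
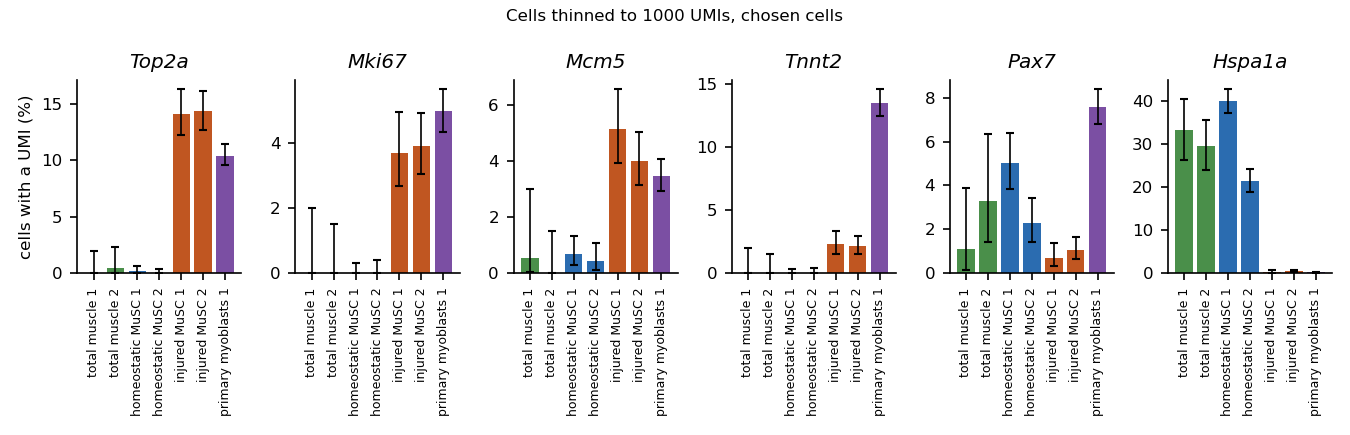
Share of chosen cells with at least 1 UMI of 6 genes after thinning to 1000 UMIs, by library (bars start at 0; whiskers are 95% exact binomial intervals, counting error alone). The proliferation genes Top2a, Mki67 and Mcm5 and the troponin Tnnt2 stand up in injured MuSCs and primary myoblasts, and Hspa1a in total muscle and homeostatic MuSCs.

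Receptors and ligands mostly fell. Of 48 tested surface receptors of muscle stem cells 32 were lower and 7 higher (median -1.27; 31 and 6 of 46 without a copy), and of 53 secreted ligands and antagonists 39 were lower and 9 higher (median -2.68; 34 and 8 of 47). Vcam1, an adhesion receptor by which these cells are often sorted, fell from 943 and 1262 CPM in homeostatic MuSC 1 and 2 to 96.5 and 97.3 in injured MuSC 1 and 2 (-3.51 ± 0.17). Tnfrsf12a, the receptor for the cytokine TWEAK, fell from 1639 and 1711 to 425 and 409 CPM (-2.01 ± 0.13). Nrp1, a co-receptor for semaphorins and VEGF, rose instead, from 6.46 and 9.83 to 42.9 and 48.1 CPM (2.49 ± 0.24). The neutrophil-attracting chemokines Cxcl1 and Cxcl2 fell from 5470 and 8342 to 298 and 310.4 CPM (-4.51 ± 0.20) and from 1000 and 2186 to 33.2 and 37.0 CPM (-5.51 ± 0.33; -4.85 without homeostatic MuSC 2). Vegfa, the angiogenic factor, rose from 64.9 and 66.4 to 142 and 162 CPM (1.21 ± 0.15). Igfbp2, which binds insulin-like growth factors, had 3 UMIs over both homeostatic libraries and 72.2 and 55.0 CPM in the injured cells, a ratio of 153 (52.3 to 744).

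Genes that read or restrain FGF signalling fell more often than they rose, with 5 of 8 lower and 2 higher (4 and 1 of 6 without a copy). Of all tested genes, 36.8% were lower and 38.1% higher. Fgfr1, the most counted of these receptors, has copies by the search used and fell from 575 and 742 to 35.7 and 44.2 CPM (-4.05 ± 0.18), and Fgfr4 from 78.4 and 56.0 to 12.9 and 11.5 CPM (-2.46 ± 0.21). Spry1, a Sprouty inhibitor tied to the return of satellite cells to rest, fell from 81.0 and 80.7 to 5.62 and 6.52 CPM (-3.74 ± 0.19), with Spry4 (-3.67 ± 0.33) and Spred1 (-1.90 ± 0.15). Spred2, which has a copy, rose (1.60 ± 0.23). Spry2 is barcode-dependent and had 240.4 and 300.4 against 346.5 and 462 CPM (0.58 ± 0.17), a call lost without homeostatic MuSC 1 (0.41) or injured MuSC 2 (0.40). Fgfrl1 did not pass (0.26 ± 0.35). Of the syndecans, co-receptors for FGF, Sdc4 is barcode-dependent and fell from 3931 and 4582 to 873 and 1054 CPM (-2.14 ± 0.14), while Sdc1 (-0.07 ± 0.21), Sdc2 (-0.11 ± 0.17) and Sdc3 (0.36 ± 0.34) did not pass the test.

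Feedback genes of MAP kinase and NF-kappaB signalling fell more often than they rose, beside 36.8% lower and 38.1% higher of all tested genes. Of 23 tested MAP kinase feedback genes 13 fell, 6 rose and 4 did not pass the test (median -0.81; 13 and 6 of 22 without a copy), and of 38 NF-kappaB targets and cytokine feedback genes 31 fell and 4 rose (median -2.20; 31 and 3 of 37 without a copy). Errfi1, an inhibitor of the EGF receptor, fell from 1697 and 1405 to 62.9 and 73.9 CPM (-4.51 ± 0.17), and the phosphatase Dusp1 from 315 and 252 to 32.5 and 27.3 CPM (-3.24 ± 0.17). Myc, a growth factor-induced transcription factor, fell as well, from 525 and 503 to 118 and 99.9 CPM (-2.24 ± 0.14). Etv4, a target of FGF and MAP kinase signalling, rose from 3 UMIs over both homeostatic libraries to 10.7 and 9.34 CPM, a ratio of 23.9 (8.01 to 117). Nfkbia, the inhibitor that NF-kappaB induces, fell from 852 and 889 to 301 and 263 CPM (-1.62 ± 0.13). Traf1, another of its known targets, had 2 UMIs in homeostatic MuSC 1 and none in homeostatic MuSC 2, against 23.2 and 20.6 CPM, a ratio of 78.3 (21.5 to 649).

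Transcription factors outside the myogenic family had 22 of 67 higher and 27 lower (21 and 24 of 63 without a copy), beside 38.1% and 36.8% of all tested genes. Stat3, the factor downstream of interleukin-6 type cytokines, fell from 497 and 430.2 CPM in homeostatic MuSC 1 and 2 to 6.51 and 9.34 in injured MuSC 1 and 2 (-5.89 ± 0.20), and Runx1 from 866 and 933 to 124 and 162 CPM (-2.66 ± 0.16). Sox11 rose from 144 and 110.5 to 244 and 317 CPM (1.14 ± 0.18), as did Tcf12 (0.98 ± 0.15), the E protein that pairs with MyoD, and Tcf7l2 (1.41 ± 0.21), a Wnt effector. In the circadian clock 13 of 18 genes fell and 1 rose (median -1.45; 12 and 1 of 16 without a copy). Rora, which activates Bmal1, fell from 164 and 123 to 7.79 and 5.46 CPM (-4.41 ± 0.22) and Clock from 66.0 and 76.5 to 28.3 and 28.9 CPM (-1.32 ± 0.16). Bhlhe41, a clock repressor and the single riser, is barcode-dependent and had 5.39 and 2.68 against 38.3 and 73.0 CPM (3.75 ± 0.39). The time of day of collection is not given in the sources used here, and its part in this group was not tested.

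Genes of the contractile apparatus rose more often than they fell, beside 38.1% higher and 36.8% lower of all tested genes. Of 43 tested contractile and excitation-coupling genes 25 were higher and 11 lower (median 1.77; 23 and 9 of 39 without a copy). Ttn, the giant sarcomeric spring, had 1.08 and 0.893 CPM in homeostatic MuSC 1 and 2 and 110.4 and 110.2 in injured MuSC 1 and 2 (6.77 ± 0.26), and Tpm1, a tropomyosin, rose from 46.6 and 59.0 to 589 and 559.9 CPM (3.45 ± 0.16). Cryab, a small heat shock protein of the sarcomere, fell from 988 and 1070 to 66.9 and 76.0 CPM (-3.85 ± 0.15), and Atp2a2, the slow calcium pump, from 186 and 204 to 75.7 and 92.2 CPM (-1.22 ± 0.15). The acetylcholine receptor of the muscle endplate parted by subunit. The fetal subunit Chrng had no UMI in the homeostatic cells and 8.55 and 11.8 CPM in the injured cells, at least 23.4-fold higher, and Chrnd had 1 UMI against 35.5 and 34.5 CPM, a ratio of 248 (44.3 to 9822). Chrna1 rose from 44.2 and 31.9 to 316 and 307 CPM (3.03 ± 0.17) and Rapsn, which clusters the receptor, from 35.8 and 22.3 to 87.4 and 78.6 CPM (1.51 ± 0.21). Chrnb1 fell from 89.1 and 91.1 to 30.0 and 25.2 CPM (-1.70 ± 0.16), and Musk, the kinase that starts endplate assembly, from 66.0 and 78.6 to 9.19 and 8.99 CPM (-2.99 ± 0.19).

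Cytoskeletal and matrix genes moved in different ways. Of 62 cytoskeleton and motility genes 37 were higher and 14 lower (22 and 10 of 39 without a copy, median 0.47). Lgals1 (galectin 1) rose from 770 and 663 CPM in homeostatic MuSC 1 and 2 to 15329 and 13242 in injured MuSC 1 and 2 (4.32 ± 0.15) and had no copy. Anxa5, a membrane repair annexin, fell from 582 and 683 to 89.5 and 77.7 CPM (-2.92 ± 0.15). Matrix proteases and their inhibitors fell in 21 and rose in 6 of 31 cases (median -1.82; 20 and 6 of 29 without a copy). Serping1, the complement C1 inhibitor, had 381 and 417 CPM against 0.766 and 0.705 (-9.03 ± 0.23), and Plaur, the urokinase receptor, fell from 317 and 320.4 to 75.7 and 67.0 CPM (-2.16 ± 0.14). Total muscle, whose chosen cells carried fibro-adipogenic markers, had Serping1 at 1036 and 809 CPM without further scaling. Timp1, an inhibitor of matrix metalloproteases, rose from 55.7 and 58.4 to 126.5 and 125.8 CPM (1.15 ± 0.14). Timp1 lies on the X chromosome, and the groups differ in sex-linked genes.

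**Figure D4:**
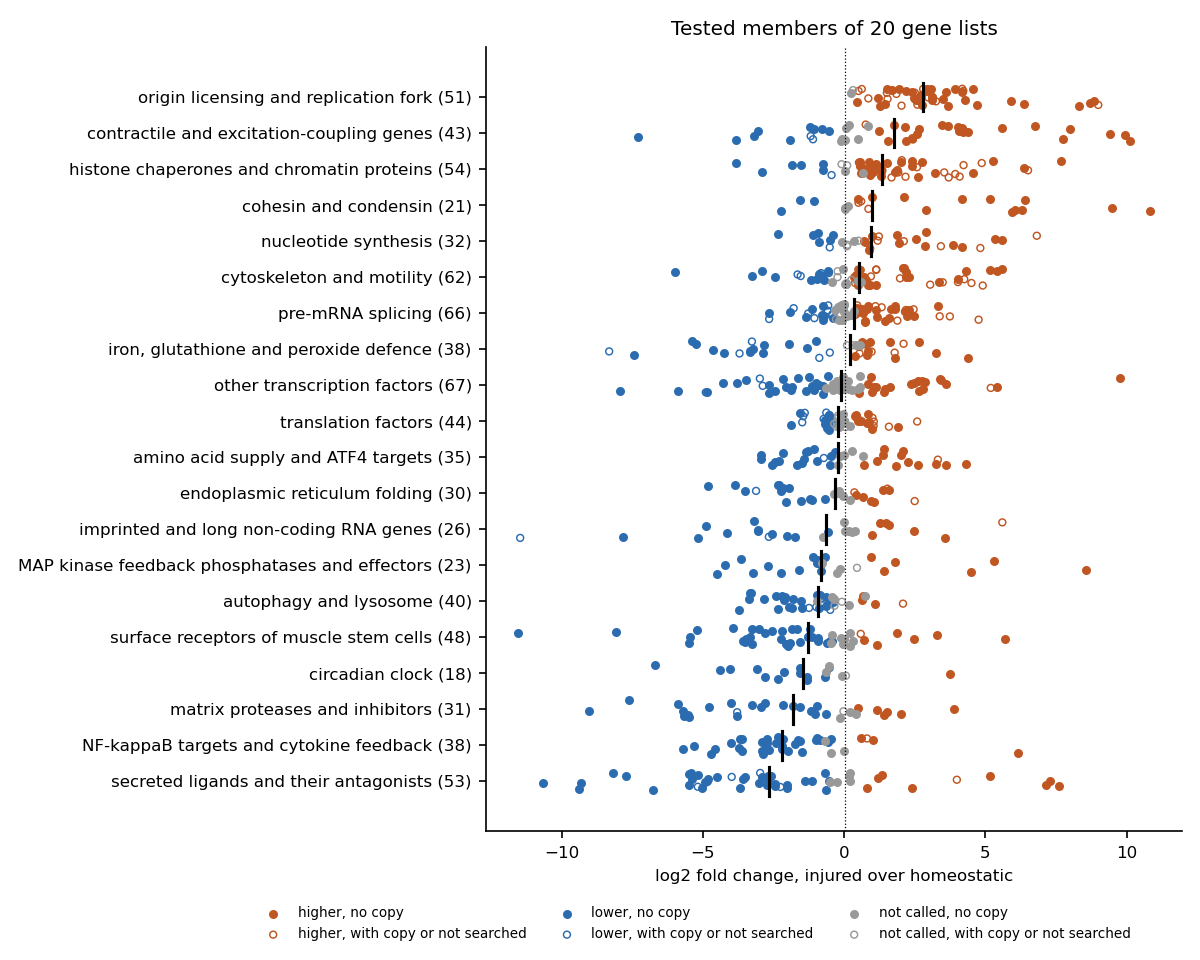
Log2 fold changes (injured over homeostatic) of the tested members of 20 gene lists, with the number tested in brackets; orange passed as higher, blue as lower, grey did not pass, open points have a copy or were not searched, thick bars are list medians and the dotted line is the median of all 10547 genes (0.02). Replication genes lie to the right with a median of 2.79, and ligands to the left with a median of -2.68.

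Protein folding, turnover and stress genes were mixed. Of 30 genes of folding in the endoplasmic reticulum 14 fell and 9 rose (median -0.32), beside 36.8% and 38.1% of all tested genes. Over the 25 without a copy, 13 fell and 6 rose (median -0.68). Hspa5 (BiP), its main chaperone and a target of the unfolded protein response, fell from 6440 and 5384 CPM in homeostatic MuSC 1 and 2 to 239 and 179 in injured MuSC 1 and 2 (-4.82 ± 0.18). Hsp90b1 (-2.17 ± 0.13) and Manf (-1.23 ± 0.14) fell less. The start region of Hspa5, at chr2:34771840-34772139 on the plus strand, is shown with CCAAT in capitals, since the known endoplasmic reticulum stress elements contain it:
Hspa5: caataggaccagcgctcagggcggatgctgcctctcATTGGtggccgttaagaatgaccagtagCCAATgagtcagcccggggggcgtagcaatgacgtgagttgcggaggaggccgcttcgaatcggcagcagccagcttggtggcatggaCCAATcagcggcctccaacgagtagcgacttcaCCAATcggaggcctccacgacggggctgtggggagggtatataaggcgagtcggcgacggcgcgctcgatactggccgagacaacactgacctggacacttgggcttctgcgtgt
CCAAT stood in 19 of 24 matched genes of this list (79.2%), against the 38.9% of tested genes given above. In the window shown it occurs 4 times.

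Of 40 autophagy and lysosome genes 29 fell and 4 rose (median -0.92; 24 and 3 of 32 without a copy). Sqstm1 (p62), an autophagy receptor, fell from 1020 and 983 to 110.5 and 88.1 CPM (-3.33 ± 0.16), Gabarap, an autophagosome protein, from 457 and 435 to 106.3 and 102 CPM (-2.10 ± 0.13) and the lysosomal protease Ctsl from 619 and 680 to 228 and 142 CPM (-1.81 ± 0.20). Atp6v0e, a subunit of the proton pump, rose from 98.6 and 110.8 to 209.6 and 237 CPM (1.09 ± 0.14). Amino acid supply and ATF4 target genes had 13 of 35 higher and 17 lower (12 and 16 of 33 without a copy), beside 38.1% and 36.8% of all tested genes. Psat1, of serine synthesis, rose from 24.2 and 19.4 to 261 and 277 CPM (3.62 ± 0.17) and the stress protein Nupr1 from 153 and 112 to 471 and 466 CPM (1.82 ± 0.16). Slc3a2, a chain of amino acid transporters, fell from 620 and 594 to 131 and 111 CPM (-2.33 ± 0.14), and Cebpb from 2235 and 2140 to 404 and 403 CPM (-2.44 ± 0.13). Iron, glutathione and peroxide genes had 16 higher and 18 lower of 38 (median 0.20), beside the same shares of all tested genes. Over the 26 without a copy, 11 were higher and 13 lower (median -0.31). The metallothioneins Mt1 and Mt2 fell from 11452 and 8683 to 2522 and 2635 CPM (-1.97 ± 0.15) and from 11286 and 11226 to 1573 and 1483 CPM (-2.88 ± 0.12), and Txn1 (thioredoxin) rose from 618 and 706 to 1287 and 1034 CPM (0.81 ± 0.15).

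RNA processing and translation showed smaller shifts. Of 66 splicing genes 32 rose and 16 fell (median 0.34; 20 and 9 of 40 without a copy), and of 44 translation factors 15 rose and 17 fell (10 and 9 of 24 without a copy), beside the 38.1% and 36.8% of all tested genes. Snrpf, a core protein of spliceosomal particles, rose from 422 and 464 CPM in homeostatic MuSC 1 and 2 to 1573 and 1532 in injured MuSC 1 and 2 (1.81 ± 0.13), and Srsf7, a splicing regulator, fell from 644 and 715 to 288 and 244 CPM (-1.35 ± 0.14). Eif4ebp1, which restrains cap-dependent translation, rose from 242 and 239 to 863 and 956 CPM (1.92 ± 0.13). Among 26 imprinted and long non-coding RNA genes 7 rose and 13 fell (6 and 11 of 23 without a copy), beside the same shares. Malat1, a nuclear RNA, took 80578 and 81710 CPM in the homeostatic and 4031 and 5029 CPM in the injured cells (-4.16 ± 0.14). The imprinted Meg3, which has a copy, had 4544 and 4399 against 1.91 and 1.06 CPM (-11.48 ± 0.23). Neat1, which builds paraspeckles and is barcode-dependent, fell (-3.20 ± 0.14), and Snhg6, a host of small nucleolar RNAs, rose from 76.7 and 78.9 to 227 and 205 CPM (1.48 ± 0.14).

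The 2 total muscle libraries and the primary myoblasts place some of these levels, in CPM of the chosen cells without further scaling. Cells of total muscle, with no injury named and Xist present, had Cdk1 at 0 and 1.02, Lmnb1 at 17.9 and 11.2 and no Chrng, beside 107 and 92.2, 58.8 and 54.1, and 7.70 and 10.7 in injured MuSC 1 and 2. They had Hspa5 at 3932 and 4312, Stat3 at 226 and 263 and Malat1 at 48094 and 45077, each between the levels of the 2 sorted groups. These cells carried fibro-adipogenic RNA at 27573 and 21149 and mature fibre RNA at 19537 and 21582 CPM, so their levels are not those of MuSCs alone. Primary myoblasts had Cdk1 at 132, Lmnb1 at 57.4, Cdkn2a at 475 and Chrng at 111, and Cxcl1 at 0.792, Stat3 at 11.9 and Malat1 at 16690 CPM. Injured MuSCs and primary myoblasts thus both had Cdk1 and Lmnb1 above and Stat3 below the homeostatic cells, while Cxcl1 was at 268 and 282 CPM in the injured cells. With 1 myoblast library there is no replicate check, and none of these levels was tested against the others.

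**Figure D5:**
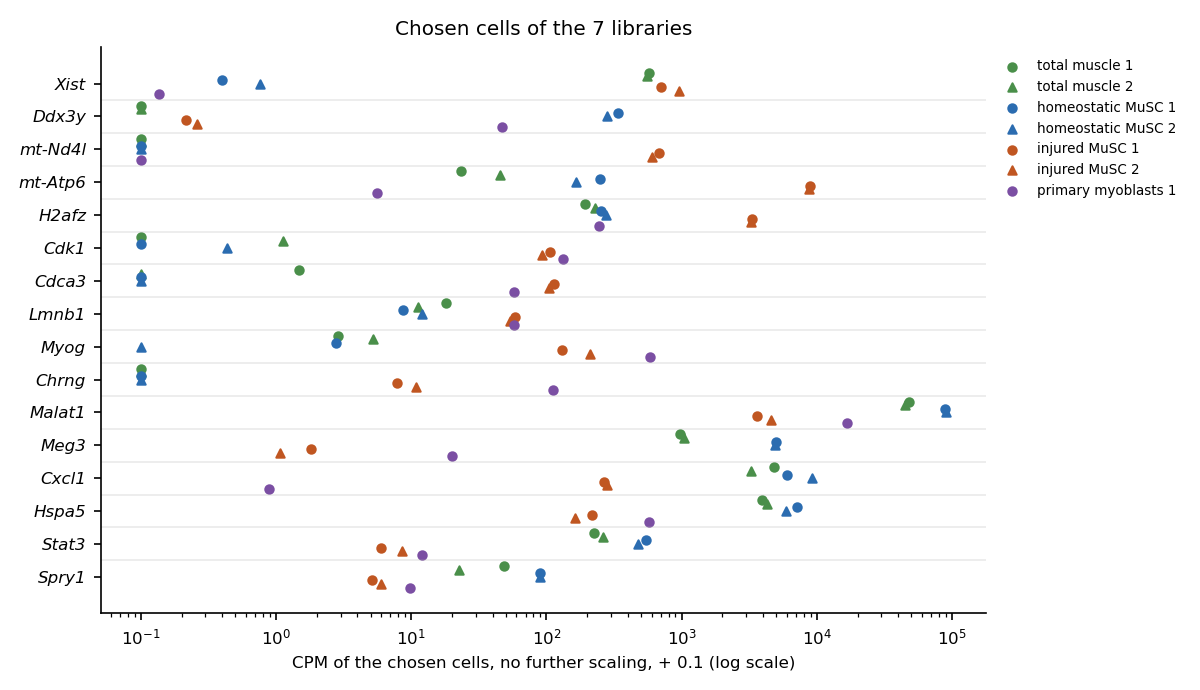
CPM plus 0.1 (log axis, no scaling beyond the total of the chosen cells) of 16 genes in the chosen cells of all 7 libraries, colours for groups and symbols for library 1 (circle) and 2 (triangle). Xist and Ddx3y part the injured and total muscle libraries from the homeostatic and myoblast ones, mt-Nd4l and mt-Atp6 part the injured libraries from all others, and Cdk1, Cdca3 and Lmnb1 are high in injured MuSCs and myoblasts.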

How the data were processed

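The authors deposited raw UMI counts, whole numbers with no normalization, for each of 27998 genes in each cell barcode, per the file headers. Libraries were made with a droplet 3' kit, per the labels, and the tools listed in the submitters' processing notes are Cell Ranger 2.2.0, Seurat 2.3.4 and bcl2fastq 2.17.1, with the build mm10 and no role stated. Groups were taken from the labels. The members, gene lists and tests were chosen with earlier results of these data known.

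UMIs of the chosen cells were summed per library, and 2 libraries a group were compared in edgeR 4.0.16 (R 4.3.3; TMM scaling, filterByExpr, quasi-likelihood test, Benjamini-Hochberg adjusted p under 0.05). The 9 genes that the cell rule reads and the 13 mitochondrially encoded genes stayed in the library sizes and out of the tests. SE is that of the log2 fold change, taken as its absolute value over the square root of the test's F statistic. Genes with no UMI in a group are given as a bound at 3 UMIs over the group, and those with 1 to 3 UMIs as a ratio with its counting interval. The biological coefficient of variation was 11.8%. No doublet caller was used; leaving out the 5% of cells with most UMIs in each library stands in for it.

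Named genes are the 12 largest rises and falls (a mean of at least 50 CPM in a group, no overlap of the groups, autosomal, no copy, no predicted gene, no marker of another cell type), every tested member of 8 families, and up to 3 called genes each way of 20 lists by mean CPM, of which the text gives a subset; 1 of the 12 falls is not reported here. A gene has a copy where blastn 2.17.0 matched the last 300 bases of its transcripts to another gene with 95% identity or more along 90 bases or more (27645 genes searched in GENCODE M21). That release may differ from the one used for the counts. The barcode check compared cells with at least 9 and at most 7 G or C among 16 barcode bases, on log2 CPM with a pseudocount of 5. It covered tested genes with at least 100 UMIs summed over both parts and both injured libraries.

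The replicate numbers that the 2 groups have in common pair no libraries by the labels, and the correlation of same-numbered deviations from the group means was 0.005 over 6690 genes. Replicate libraries differed beyond sampling noise (chi-square per degree of freedom 6.11 and 9.07). Alternatives were another tool (DESeq2 1.42.0), scaling, filter, cell rules, thinning, barcodes, copies, samples in the fit, a replicate block and leaving out each library.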

Additional observations from a re-analysis of the deposited data

How the results depend on the processing

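The counts of 4016 higher and 3877 lower genes lay within 1.5 times under each of the 17 alternatives, except that thinning each cell to 1000 UMIs left 7603 genes tested, 2661 of them higher and 2702 lower. Leaving out 1 library gave 3519 to 3994 higher and 3317 to 3773 lower genes. In those fits the lone library of a group is assumed to vary like the other group. DESeq2 gave 3442 and 3345, all among edgeR's calls. Without the barcodes that the 4 libraries shared, 3955 genes were higher and 3855 lower. With the replicate number as a replicate block the counts were 3995 and 3843 and no named gene changed its call; the numbers pair nothing by the labels, and their deviations did not go together. Of 2304 values of the 137 named genes under these alternatives, 2264 kept their direction and side of the threshold. The alternative of genes without a copy is a subset of the main fit, so its values could not change. Members that did not pass the test changed sign in 15 cases. These were Ccnd2 with at least 3 marker UMIs a cell (0.02), Sdc1 there (0.03) and without the 5% of cells with most UMIs (0.10), Cdkn1c with no scaling (-0.27), with no marker rule (-0.32) and after thinning (-0.25), Rbl2 with no scaling (-0.02) and with no marker rule (-0.19), and E2f6 (-0.05) and Fgfrl1 (-0.03) with no scaling. Leaving out a library gave -0.47 to 0.14 for Cdkn1a, -0.03 to 0.07 for Cdkn1c, -0.23 to 0.12 for Sdc1 and -0.25 to 0.03 for Sdc2. The cause was not tested. Calls were lost in 17 cases, of Lbr, Dnmt3b, Spry2 and, after thinning, E2f3, and gained in 8, of Ccnd2, Cdkn1a and Tet3. Homeostatic cells had a median of 2392 and 2476 UMIs, so a gene at 0 there is below detection at this depth and not shown to be absent. The 2 groups also differ in sex-linked genes, in mt-Nd4l and mt-Atp6 counts and in whether the labels name the muscle, which no alternative can separate. Over genes without a copy, 2994 were higher and 3310 lower.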
